A study of Mus musculus with 11 samples.

Results

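Nitrite can be reduced to nitric oxide by several enzymes and heme proteins, and the transcripts of 10 such candidates were examined here in the old mouse aorta. They were Xdh, Aox1, Mb, Cygb, Ngb, Hba-a1, Hbb-b1, Aldh2, Cyb5r3 and Por, chosen by name from what their proteins are known to do and taken from the array by an equal gene name among spots other than controls. These 10 genes had 12 probes among 55681 probes under 36413 names. The mice were male C57BL/6 mice of 20 months, and each array held RNA of the descending aorta of a separate mouse. Old nitrate treated mice (n = 5) had received 1 g/L NaNO3 in their drinking water for 8 weeks. For the old control mice (n = 6) the labels give the agent as control and refer to earlier samples analysed anew, while the study's methods state that control mice drank sodium chloride at an equal concentration. Vessels had been rinsed through the left ventricle and freed of surrounding fat before RNA was extracted. The study states 6 mice per group, and 1 array of the nitrate group is not analysed here. The labels name no transgene, and whole vessel wall was measured, so fewer cells of a type and less RNA per cell cannot be told apart.

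Dietary nitrate is turned into nitrite by bacteria of the mouth, and nitrite is reduced further to nitric oxide in blood and tissue, more readily where oxygen and pH are low. Xanthine oxidoreductase and aldehyde oxidase do this at a molybdenum cofactor, while myoglobin, hemoglobin, cytoglobin and neuroglobin do it at a ferrous heme. The same globins, once they carry oxygen, consume nitric oxide and turn it into nitrate, so a globin can be a source or a sink. Cytochrome b5 reductase 3 and cytochrome P450 reductase hand on electrons to heme proteins, and mitochondrial aldehyde dehydrogenase is best known in vessels for activating nitroglycerin.

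The results turn on the hemoglobin genes, which moved together from mouse to mouse, and on myoglobin, which moved with heart muscle genes. Their promoters are therefore shown, as the 120 bases before the start site in RefSeq (GRCm38.p6), 5′ to 3′ on the strand of the gene. Capitals mark the letters of the classic boxes of globin promoters on either strand, CACCC, the CCAAT box and the TATA box as ATATAA. A match describes letters only, and touching matches run together.
Hba-a1, chr11:32283552-32283671, plus strand: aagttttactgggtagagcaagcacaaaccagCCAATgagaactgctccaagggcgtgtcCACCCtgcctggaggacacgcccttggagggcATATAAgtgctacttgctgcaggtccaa
Hbb-bt, chr7:103813924-103814043, minus strand: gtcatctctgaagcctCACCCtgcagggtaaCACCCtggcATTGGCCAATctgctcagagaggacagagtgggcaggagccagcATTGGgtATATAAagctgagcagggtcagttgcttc
Hbb-bs, chr7:103827929-103828048, minus strand: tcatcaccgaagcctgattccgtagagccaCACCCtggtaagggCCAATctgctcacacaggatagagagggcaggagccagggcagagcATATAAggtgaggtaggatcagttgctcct
Mb, chr15:77022788-77022907, minus strand: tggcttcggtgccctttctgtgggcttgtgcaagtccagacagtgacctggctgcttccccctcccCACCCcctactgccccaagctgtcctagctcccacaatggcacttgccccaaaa
The RefSeq record behind the probe named Hbb-b1 is listed in that table as Hbb-bt, which is why the Hbb-bt promoter stands here for Hbb-b1, with Hbb-bs, the other adult beta chain gene, for comparison. All 3 motifs were found in the hemoglobin stretches, in each with ATATAA about 30 bases before the start (28 bases in Hba-a1, 29 in Hbb-bt and 30 in Hbb-bs). Among 32851 RefSeq promoters, stretches of this length held CACCC in 31.7%, CCAAT in 21.3%, ATATAA in 4.47% and all of them in 0.286%, or 94 promoters. In the Mb stretch, the middle of 3 start sites listed, only CACCC was found. Among the other members the table had promoters for Aox1 and Por.

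The Hba-a1 probe is shown too, because the gene it reports is not unique. It lies in the coding part of the transcript, at bases 161 onward of its RefSeq record, and the files list records of both Hba-a1 and Hba-a2 for it.
Hba-a1 probe, 60 bases: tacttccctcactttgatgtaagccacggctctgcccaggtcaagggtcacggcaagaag
Signals of Hba-a1 and Hba-a2, and likewise of the beta globin genes, may share RNA from near-identical copies.

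The 11 arrays had 24763 to 28672 probes well above background, at most 186 flagged spots and no saturated spot per array. Control 5 had the most probes above background, with at most 26911 on any other array, and its mean correlation with the others was the lowest, at 0.978 against 0.983 to 0.987. In this set, 23633 probes passed the detection flags on 5 or more arrays of a group, and these were tested. With the rule of the study, which asks for P below 0.05 without adjustment and more than a 1.2-fold change, 2128 transcripts were differentially expressed (9.00%), 982 higher (4.16%) and 1146 lower (4.85%) in old nitrate treated mice. At an adjusted P value under 0.05 there were 3 (0.0127%). All arrays of control mice lay in 1 column of the slides where no nitrate array lay, so slide column and treatment cannot be told apart. The arrays came from 3 slides, each of which held both groups.

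None of the 10 genes was differentially expressed by this rule in old nitrate treated mice. All 10 had at least 1 detected probe, and 0 of the 10 passed (limma), against 9.00% of all transcripts tested. The number of their 12 probes with P below 0.05 before adjustment was 0 (limma), against 14.4% of all tested. Mean signal was higher in nitrate treated mice for 5 genes and lower for 5. For all 12 probes the values of the groups overlapped, and 2.75% of transcripts tested had groups that did not. Adjusted P values of the 12 probes lay between 0.507 and 0.94 (limma with Benjamini-Hochberg adjustment).

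**Figure D1:**
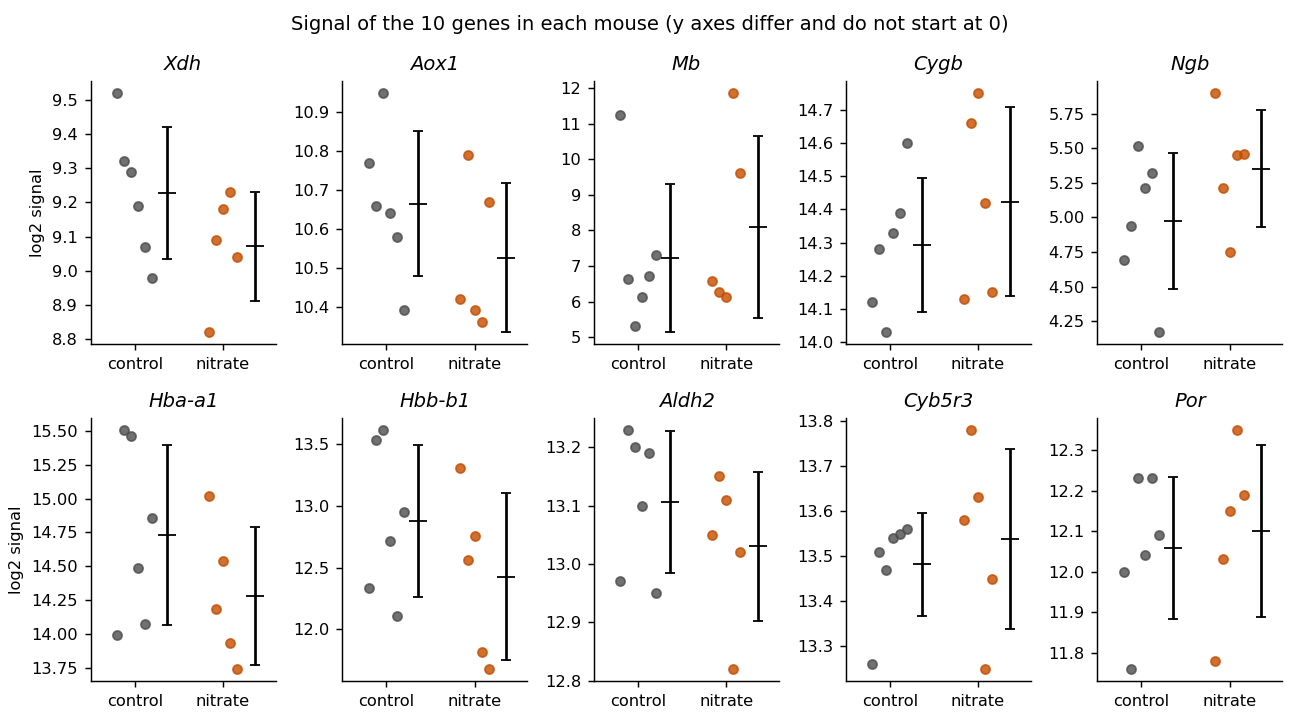
Normalized log2 signal (y axis, its own range in each panel) of the 10 genes in 6 control and 5 nitrate treated mice. Each point is 1 mouse, and bars give the mean ± SD of the group. The groups overlap in every panel, and Mb spans 5.30 to 11.87.

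Xdh and Aox1, the molybdenum enzymes of the set, had slightly lower means after nitrate. Xdh encodes xanthine oxidoreductase, which also makes uric acid at the end of purine breakdown. Its log2 signal was 8.82, 9.09, 9.18, 9.23 and 9.04 in nitrate treated mice 1 to 5 and 9.52, 9.32, 9.29, 9.19, 9.07 and 8.98 in control mice 1 to 6. Nitrate treated mouse 1 lay below all controls and the other nitrate treated mice lay within their range. The spot was found and above background on 5 of 5 nitrate and 4 of 6 control arrays, so Xdh entered the test through the nitrate group. The means were 9.07 ± 0.16 (SD, n = 5) and 9.23 ± 0.19 (SD, n = 6), a difference of -0.16 on the log2 scale (SE 0.11, 95% interval -0.39 to 0.08, P = 0.169 by limma, P = 0.186 by a two-sided exact permutation test). That interval runs from 0.765 to 1.05 times the control level. The difference was -0.47 on slide 1, 0.10 on slide 2 and -0.04 on slide 3, so its sign was not shared by the slides. The probe covers chr17:74233511-74233570 in mm9, the build of the files.

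Aox1 encodes aldehyde oxidase, which oxidizes aldehydes and many drugs. Its log2 signal was 10.42, 10.79, 10.39, 10.36 and 10.67 in nitrate treated mice and 10.77, 10.66, 10.95, 10.64, 10.58 and 10.39 in controls. The lowest value was that of nitrate treated mouse 4 and the highest that of control 3, with the remaining mice of both groups interleaved. The difference in means was -0.14 (SE 0.11, 95% interval -0.38 to 0.10, limma P = 0.237, exact permutation P = 0.268), and it was negative on each slide, at -0.11, -0.12 and -0.25. The Aox1 probe lies at chr1:58163025-58163084 in mm9.

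The enzymes around these were written down as lists by pathway, with earlier results of these data known. Of the 11 other molybdenum enzymes and cofactor synthesis genes, 8 were detected, 7 of them lower (10920 of all 23633 transcripts tested). In limma 0 passed the rule (9.00% of all) and 0 reached an unadjusted P value under 0.05 (14.4% of all). Aox2, Aox3 and Aox4, the other aldehyde oxidase genes, did not meet the detection rule. The median difference of the 8 genes was -0.12, against 0.01 over all transcripts tested. The mean of this list was highest in controls 1 and 3, at 10.49 and 10.32, which were also highest in the mean of fat cell markers, and the part of fat cell RNA was not tested. Of the 9 purine degradation genes, 7 were detected, with a median difference of 0.06, and 1 passed the rule (9.00% of all transcripts tested did, 4.16% as higher). This was Nt5e, whose ecto-5′-nucleotidase makes adenosine outside the cell. Nt5e log2 signal was 6.54, 6.84, 6.99, 7.18 and 7.30 in nitrate treated mice and 6.29, 6.90, 6.86, 6.53, 6.53 and 6.19 in controls. It rose by 0.42 (SE 0.16, limma P = 0.0232, adjusted P = 0.29), with 3 nitrate treated mice above all controls, while the exact permutation P was 0.0519. Without nitrate treated mouse 4 or 5, or without control 1 or 6, and with another background correction, Nt5e no longer passed.

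Among the globins, myoglobin varied most. Mb, the oxygen store of heart and red skeletal muscle, had log2 signals of 6.57, 6.27, 6.13, 11.87 and 9.62 in nitrate treated mice and 11.26, 6.64, 5.30, 6.13, 6.71 and 7.30 in controls. Nitrate treated mice 4 and 5 and control 1 were high, and the other 8 mice lay between 5.30 and 7.30. The highest signal was 94.8 times the lowest, and the spread within groups (pooled SD 2.31) was exceeded by only 5 of the 23633 transcripts tested. The means were 8.09 ± 2.55 (SD, n = 5) and 7.22 ± 2.09 (SD, n = 6), a difference of 0.87 (SE 1.22, 95% interval -1.79 to 3.52, limma P = 0.491, exact permutation P = 0.545). The difference depended on single mice. Without control 1 it was 1.67 and without nitrate treated mouse 4, the only single mouse to turn the sign, it was -0.08. Within slides it was -2.53, -0.59 and 4.74. The Mb probe lies at chr15:76846069-76846128 in mm9, and its spot was found and above background on 4 of 5 nitrate and 6 of 6 control arrays.

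The 3 mice high in Mb were also high in heart muscle genes. Myh6, the alpha myosin heavy chain of heart, had a log2 signal of 14.64 in nitrate treated mouse 4, 12.32 in nitrate treated mouse 5 and 14.05 in control 1, and 7.14 to 10.63 in the others. Of the 16 heart muscle markers 11 were detected, 10 with a higher mean in nitrate treated mice (12713 of all 23633 transcripts tested). In limma 0 passed the rule (9.00% of all), with a smallest unadjusted P value of 0.119. The summed signal of the 16 markers ranged from 4803 to 81825 (median 7492) in nitrate treated mice and from 3608 to 53578 (median 4541) in controls. The high mice differed among themselves. Nppa, the natriuretic peptide of the atria, was at 13.45 and 12.46 in nitrate treated mouse 4 and control 1 and at 6.14 in nitrate treated mouse 5, while Myl2, the ventricular light chain, which did not meet the detection rule, was at 4.68, 5.99 and 9.98 in the same order. The genes most like Mb over the 11 arrays, among 12213 symbols with a detected probe, were Fndc5 (Pearson r = 0.984), Cox6a2 (r = 0.984) and Tpm1 (r = 0.983). Cox6a2 encodes the heart and muscle form of a cytochrome oxidase subunit and Tpm1 a tropomyosin. In these correlations the 3 mice high in Mb lie apart from the other 8. Skeletal muscle also makes myoglobin. Of 15 skeletal muscle markers 10 were detected, 9 with a higher mean after nitrate (12713 of all 23633 transcripts tested), and 1 passed the rule (4.16% of all passed as higher), Atp2a1, the calcium pump of fast muscle (higher by 0.29 on the log2 scale). Acta1, the skeletal actin, was at 13.14, 13.10 and 12.89 in nitrate treated mice 4 and 5 and control 1 and between 12.67 and 13.68 in the other mice. Ckm, the creatine kinase of both heart and skeletal muscle, was at 7.18, 5.97 and 7.20 in these mice and between 4.47 and 5.46 in the others. The part of heart or skeletal muscle RNA in the Mb values was not tested.

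**Figure D2:**
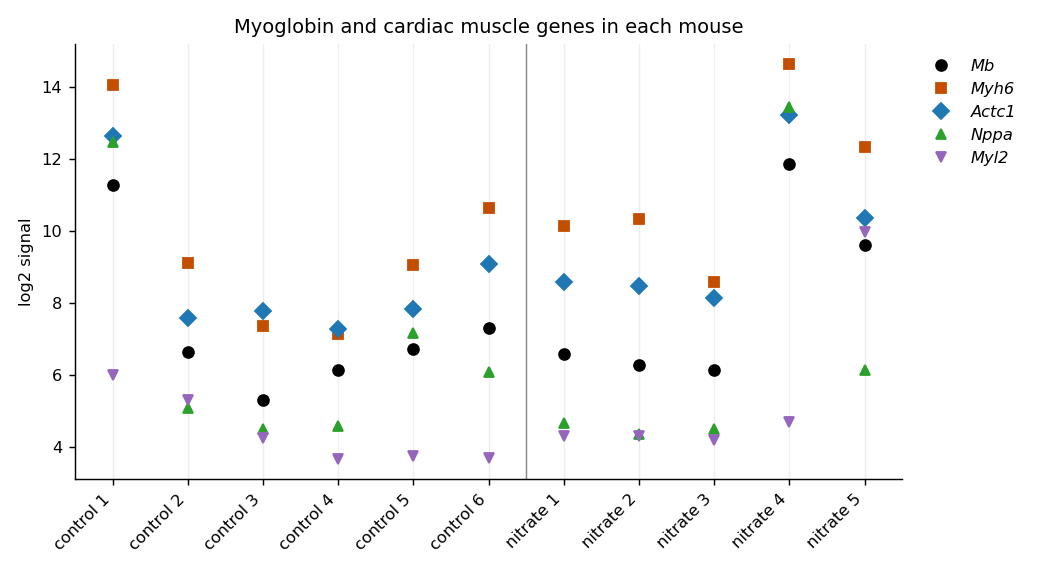
Normalized log2 signal (y axis) of Mb and 4 heart muscle genes in each of the 11 mice (x axis, controls left of the line, nitrate treated mice right). Each symbol is 1 gene. Mb, Myh6 and Actc1 are high in control 1 and nitrate treated mice 4 and 5, Nppa in control 1 and nitrate treated mouse 4, and Myl2 in nitrate treated mouse 5.

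Cytoglobin, the globin of fibroblasts and vascular smooth muscle and a known consumer of nitric oxide in the vessel wall, had nearly equal means. Cygb log2 signal was 14.13, 14.66, 14.75, 14.42 and 14.15 in nitrate treated mice and 14.12, 14.28, 14.03, 14.33, 14.39 and 14.60 in controls. Nitrate treated mice 2 and 3 lay above all controls, and mice 1 and 5 among the lowest values. The difference was 0.13 (SE 0.14, 95% interval -0.17 to 0.43, limma P = 0.361, exact permutation P = 0.392), or 0.89 to 1.35 times the control level by the interval. It was positive on each slide, at 0.19, 0.29 and 0.07. The genes most like Cygb were Chrdl1 (r = 0.915), Tmem119 (r = 0.899) and Gm5386 (r = 0.884). Cygb was measured at chr11:116507496-116507555 in mm9.

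Neuroglobin, known from neurons, was near the background. Its first probe (chr12:88438908-88438967 in mm9) was well above background on 5 of 5 nitrate and 4 of 6 control arrays, and so entered the test through the nitrate group. It gave log2 signals of 5.90, 5.21, 4.75, 5.45 and 5.46 in nitrate treated mice and 4.69, 4.94, 5.52, 5.21, 5.32 and 4.17 in controls. The highest value was that of nitrate treated mouse 1 and the lowest that of control 6. The difference was 0.37 (SE 0.25, 95% interval -0.16 to 0.91, limma P = 0.154, exact permutation P = 0.219), of which slide 1 gave 0.73, slide 2 gave 0.06 and slide 3 gave 0.03. With another background correction it was 0.12. The second probe (chr12:88439030-88439089), well above background on all 11 arrays, gave 5.30, 5.06, 4.62, 5.05 and 4.92 against 4.87, 5.35, 4.80, 5.12, 4.69 and 4.83. Its difference was 0.05 (SE 0.14, 95% interval -0.26 to 0.35, limma P = 0.745, exact permutation P = 0.76), so the probes of Ngb did not give the same size of difference.

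The hemoglobin genes had lower means after nitrate, with wide spread in both groups. Hba-a1, an alpha chain gene, had log2 signals of 15.02, 14.18, 14.54, 13.93 and 13.74 in nitrate treated mice and 13.99, 15.51, 15.46, 14.49, 14.07 and 14.86 in controls. Controls 2 and 3 were highest and nitrate treated mice 4 and 5 lowest, and the remaining mice of both groups were interleaved. The difference was -0.45 (SE 0.32, 95% interval -1.15 to 0.25, limma P = 0.184, exact permutation P = 0.251). Hbb-b1, a beta chain gene, had log2 signals of 13.31, 12.56, 12.76, 11.82 and 11.68 in nitrate treated mice and 12.34, 13.54, 13.62, 12.72, 12.11 and 12.95 in controls. The same mice were at the top and the bottom, and the difference was -0.46 (SE 0.34, 95% interval -1.20 to 0.29, limma P = 0.208, exact permutation P = 0.262). In fold terms the intervals run from 0.452 to 1.19 and from 0.434 to 1.22 times the control level. On slides 1 and 2 the differences were -0.15 and -0.14 for Hba-a1 and -0.01 and -0.08 for Hbb-b1, and on slide 3, which held the 2 lowest nitrate treated mice, they were -0.93 and -1.12. The probes lie at chr11:32183955-32184014 and chr7:110961105-110961164 in mm9.

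Hemoglobin signals varied together across mice. Between Hba-a1 and Hbb-b1, Pearson's r was 0.969 and Spearman's rho 0.982 over the 11 mice (permutation P = 1e-05 for both, the smallest that 100000 resamples can give, adjusted P = 1e-05 and 1.5e-05 over 3 relations). Without controls 2 and 3, the mice farthest from the median, r was 0.952. It was 0.984 among controls, 0.971 among nitrate treated mice and 0.981 after slide means were removed. Alas2, the first enzyme of heme synthesis in red cell precursors and reticulocytes, followed both. With Hba-a1 its r was 0.974 and rho 0.982 (permutation P = 1e-05 for both, adjusted P = 1e-05 and 1.5e-05), and 0.947 without controls 2 and 3. With Hbb-b1 its r was 0.980 (permutation P = 1e-05, adjusted P = 1e-05) and rho 0.964 (permutation P = 3e-05, adjusted P = 3e-05), and 0.964 without nitrate treated mice 4 and 5. Controls 2 and 3 held the highest values and nitrate treated mouse 5 the lowest for both Hba-a1 and Hbb-b1. The genes most like Hba-a1 were Hba-a2 (r = 0.993), Alas2 (r = 0.974) and Hbb-b2 (r = 0.973), and those most like Hbb-b1 were Hbb-b2 (r = 0.982), Alas2 (r = 0.980) and Hba-a1 (r = 0.969). Alas2 thus stands high in both rankings, and its P values, adjusted over 3 relations only, take no account of the 12213 symbols ranked.

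**Figure D3:**
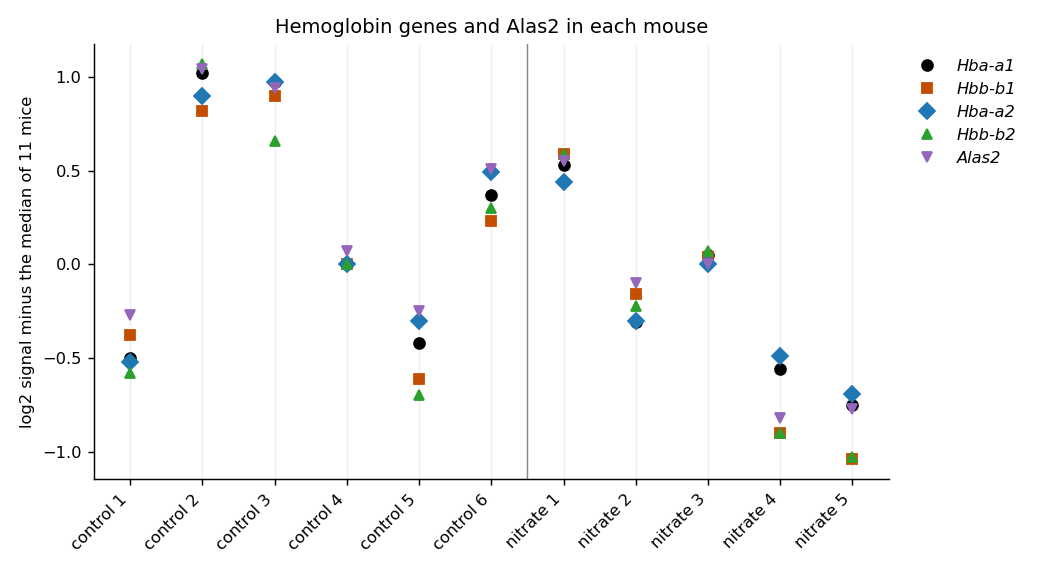
Log2 signal of 4 hemoglobin genes and Alas2 in each mouse, each gene minus its median over the 11 mice (y axis, controls left of the line, nitrate treated mice right). The 5 symbols of a mouse lie near each other, with controls 2 and 3 at the top and nitrate treated mice 4 and 5 at the bottom. For Hba-a2, control 1 lies just below nitrate treated mouse 4 (15.66 and 15.69 before the median is taken off).

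Of further red cell genes, Alas2 had a mean of 7.83 ± 0.58 (SD, n = 5) and 8.40 ± 0.58 (SD, n = 6), a difference of -0.56 (limma P = 0.0912, exact permutation P = 0.143). Slc4a1, the anion exchanger of the red cell membrane, differed by 0.01 (limma P = 0.954, exact permutation P = 0.939). Over single mice Slc4a1 was highest in nitrate treated mouse 1 (6.13) and controls 2 (6.05) and 3 (5.86) and lowest in control 5 (5.13) and nitrate treated mouse 5 (5.18). Hemgn, a nuclear protein of blood cell precursors, had another order, highest in nitrate treated mouse 5 (12.09), control 3 (12.01) and nitrate treated mouse 4 (11.99) and lowest in nitrate treated mouse 1 (11.32). Of the 14 red cell markers 6 were detected, 1 of them passed the rule, against 9.00% of all transcripts tested (Tfrc, the transferrin receptor, lower by 0.43 on the log2 scale, limma P = 0.0414, exact permutation P = 0.0671), and Ahsp, Rhag, Klf1 and Gata1, which define the lineage, did not meet the detection rule. Their summed signal was 3667 to 5318 in nitrate treated mice and 3924 to 5482 in controls. The part of blood left in the vessel was not tested. Of the other globin genes 7 were on the array by name and 2 were detected, Hba-a2 with a difference of -0.46 (SE 0.30, limma P = 0.142, exact permutation P = 0.203) and Hbb-b2 with -0.43 (SE 0.36, limma P = 0.265, exact permutation P = 0.325). The embryonic and theta chain genes Hba-x, Hbb-y, Hbb-bh1, Hbq1a and Hbq1b did not meet the detection rule. Of 5 genes listed for hemoglobin and heme scavenging, 4 were detected. Among the 5 is Hbp1, which encodes an HMG-box transcription factor and scavenges neither. In limma 0 of the list passed the rule (9.00% of all transcripts tested), with a smallest unadjusted P value of 0.0837.

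Aldh2 was the steadiest of the 10 genes. It encodes mitochondrial aldehyde dehydrogenase, and its log2 signal was 13.05, 13.15, 13.11, 12.82 and 13.02 in nitrate treated mice and 12.97, 13.23, 13.20, 13.10, 13.19 and 12.95 in controls. All 11 values lay within a 1.32-fold range, with nitrate treated mouse 4 lowest. The difference was -0.08 (SE 0.08, 95% interval -0.25 to 0.10, limma P = 0.359, exact permutation P = 0.331), so a change beyond 0.839 to 1.07 times the control level lay outside the interval. Within slides it was -0.00091, 0.08 and -0.28. The probe is placed at chr5:122022137-122022690 in mm9, a stretch longer than the probe.

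Of the aldehyde dehydrogenase family, 6 other genes passed the rule as lower after nitrate, and 0 passed at an adjusted P value under 0.05 (limma). Of 18 members beside Aldh2, all were detected, 11 with a higher and 7 with a lower mean, and 6 passed the rule, all of them lower (4.85% of all transcripts tested were lower by this rule). The median difference of the 18 was 0.04. Aldh9a1, which oxidizes aminoaldehydes on the way to carnitine and GABA, had the smallest P value. Its log2 signal was 10.10, 9.92, 10.08, 9.88 and 10.03 in nitrate treated mice and 10.89, 10.33, 10.20, 10.42, 10.20 and 10.31 in controls. Every nitrate treated mouse lay below every control, and the signal fell by 0.39 (SE 0.12, limma P = 0.00624, adjusted P = 0.212, exact permutation P = 0.00649). Control 1 stood above the others, and without it the difference was -0.29, still past the rule.

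The other 5 overlapped between groups, with adjusted P values of 0.268 to 0.29 in limma. Aldh1a7, a retinaldehyde dehydrogenase relative, fell by 0.69 (SE 0.26, limma P = 0.0225, exact permutation P = 0.0433), from 10.80 ± 0.63 (SD, n = 6) in controls, where controls 1 and 3 stood at 11.59 and 11.51, to 10.11 ± 0.22 (SD, n = 5). Aldh1l1, which oxidizes formyltetrahydrofolate, fell by 0.51 (SE 0.18, limma P = 0.0166, exact permutation P = 0.0195), again with controls 1 and 3 highest, both at 12.51. Aldh5a1, of GABA breakdown, fell by 0.40 (SE 0.14, limma P = 0.0152, exact permutation P = 0.0325). Aldh6a1, of valine breakdown, fell by 0.35 (SE 0.12, limma P = 0.0153, exact permutation P = 0.0281) on its brighter probe and by 0.31 on the other (SE 0.12, adjusted P = 0.29). Aldh4a1, of proline breakdown, fell by 0.35 (SE 0.12, limma P = 0.0162, exact permutation P = 0.0325). Without nitrate treated mouse 1 Aldh1a7 no longer passed. Fat cell markers also had lower signals. Of 23 such genes 22 had a lower mean after nitrate (10920 of all 23633 transcripts tested did) and 12 passed the rule, all lower (4.85% of all transcripts tested were), with a median difference of -0.36 and a summed signal of 502041 to 683577 in nitrate treated mice and 621631 to 891069 in controls. Adipoq, the adiponectin gene, fell by 0.49 (limma P = 0.000752, exact permutation P = 0.00216), and the mean of the fat cell list was highest in controls 1 and 3, at 13.74 and 13.57. Of 14 brown fat cell markers 5 had a higher and 9 a lower mean, and 1 passed as higher (4.16% of all) and 2 as lower (4.85%). Fibroblast markers had a higher mean in 10 of 10 cases and smooth muscle markers in 11 of 12 (12713 of all 23633), with 0 and 1 passing as higher. The part of fat cell RNA in the aldehyde dehydrogenase values was not tested.

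The electron donors Cyb5r3 and Por differed by less than the spread between mice. Cyb5r3 encodes cytochrome b5 reductase 3, which keeps hemoglobin and, in smooth muscle, the nitric oxide receptor in reduced form. Its brighter probe (chr15:82984368-82984427 in mm9) gave 13.58, 13.78, 13.63, 13.25 and 13.45 in nitrate treated mice and 13.26, 13.51, 13.47, 13.54, 13.55 and 13.56 in controls. Here 5 of the 6 controls lay between 13.47 and 13.56 with control 1 below them, while 3 nitrate treated mice lay above all controls and 1 below. The difference was 0.06 (SE 0.10, 95% interval -0.15 to 0.27, limma P = 0.554, exact permutation P = 0.541), and it was 0.30 on slide 1, 0.07 on slide 2 and -0.16 on slide 3. The second probe (chr15:82992333-82992667, a stretch longer than the probe) gave 10.14, 10.43, 10.28, 9.48 and 9.73 against 10.10, 10.01, 9.81, 9.98, 9.92 and 10.03. On it nitrate treated mice 1, 2 and 3 lay above all controls and mice 4 and 5 below them, with a difference of 0.04 (SE 0.15, 95% interval -0.29 to 0.37, limma P = 0.803, exact permutation P = 0.823). The SD of this probe was 0.40 among nitrate treated mice (n = 5) and 0.10 among controls (n = 6), and no test of the spread was made.

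Por encodes the reductase that feeds electrons to microsomal P450 enzymes and to heme oxygenase. Its log2 signal was 11.78, 12.03, 12.15, 12.35 and 12.19 in nitrate treated mice and 12.00, 11.76, 12.23, 12.04, 12.23 and 12.09 in controls. Nitrate treated mouse 4 was highest and control 2 lowest, with nitrate treated mouse 1 close to it. The difference was 0.04 (SE 0.11, 95% interval -0.20 to 0.29, limma P = 0.721, exact permutation P = 0.727), and 0.02, 0.09 and 0.04 within slides, measured at chr5:136211122-136211181 in mm9.

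**Figure D4:**
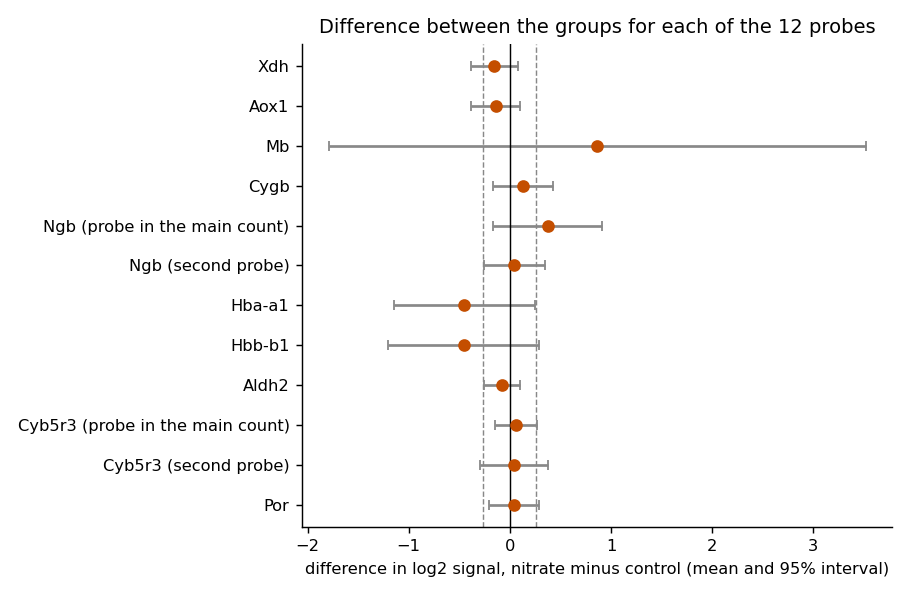
Difference in mean log2 signal, nitrate minus control (x axis), of the 12 probes of the 10 genes (y axis). Points are limma estimates, bars 95% intervals, the solid line no difference and the dashed lines a 1.2-fold change either way. Every interval includes 0, and that of Mb, from -1.79 to 3.52, is the widest.

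Of 6 cytochrome b5 system genes, which encode cytochromes b5 or relatives of Cyb5r3, 5 were detected. The rule was passed by 1 (9.00% of all transcripts tested did, 4.85% as lower). Cyb5b, the cytochrome b5 of the outer mitochondrial membrane, fell by 0.36 (SE 0.15, limma P = 0.0323, adjusted P = 0.315, exact permutation P = 0.0346), from 11.42 ± 0.35 (SD, n = 6) to 11.06 ± 0.09 (SD, n = 5). Its second probe fell by 0.50 (SE 0.19, limma adjusted P = 0.285). Controls 1 and 3, at 12.00 and 11.68, were the highest, as they were in the mean of the fat cell list, a link that was not tested, and Cyb5b no longer passed without control 1, control 3, nitrate treated mouse 4 or nitrate treated mouse 5.

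Of 10 genes listed around the electron acceptors of Por and heme breakdown, all were detected, 7 of them with a lower mean (10920 of all 23633 transcripts tested). Their median difference was -0.12, and 1 passed, near the 9.00% of all. Hmox1, the inducible heme oxygenase, had log2 signals of 8.80, 9.32, 9.17, 9.18 and 9.16 in nitrate treated mice and 8.92, 8.70, 8.85, 8.77, 8.84 and 8.86 in controls. All nitrate treated mice except mouse 1 lay above all controls. It rose by 0.30 (SE 0.09, limma P = 0.00476, adjusted P = 0.196, exact permutation P = 0.0152). Without nitrate treated mouse 2 the rise was 0.26, under the 1.2-fold limit. Of 8 genes listed beside Por, flavin reductases and a ferredoxin, 7 were detected and 1 passed (9.00% of all, 4.16% as higher). Nqo1, the quinone reductase, had log2 signals of 8.66, 8.44, 8.59, 8.68 and 8.41 in nitrate treated mice and 7.79, 8.08, 8.46, 8.25, 8.53 and 8.47 in controls. It rose by 0.29 (SE 0.13, limma P = 0.0448, adjusted P = 0.338), with an exact permutation P of 0.0563, and did not pass without nitrate treated mouse 1, 3 or 4, without control 1, 2 or 4, or with the replicate number as a block.

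Heme synthesis genes had lower means after nitrate in 8 of 9 cases, all detected, with a median difference of -0.11 against 0.01 over all transcripts tested, of which 10920 of 23633 had lower means. The rule was passed by 2, both lower, against 4.85% of all transcripts tested. Alas1, the first and regulated step in most tissues, had log2 signals of 12.63, 12.84, 12.92, 12.77 and 12.61 in nitrate treated mice and 13.42, 13.29, 13.35, 13.15, 12.92 and 12.86 in controls. Nitrate treated mice 1, 4, 2 and 5 lay below all controls and mouse 3 reached the level of control 5. The signal fell by 0.41 (SE 0.11, limma P = 0.00361, adjusted P = 0.185, exact permutation P = 0.0152). A second, dimmer Alas1 probe differed by -0.07 (SE 0.12, limma adjusted P = 0.831), so the probes of Alas1 disagree. Alad, of the next step, fell by 0.32 (SE 0.12, limma P = 0.0228, exact permutation P = 0.0173), from 10.12 ± 0.27 (SD, n = 6), with control 1 highest at 10.61, to 9.81 ± 0.11 (SD, n = 5), and did not pass without nitrate treated mouse 2 or without control 1. The mean of the heme synthesis list was highest in controls 1 and 3, at 10.02 and 10.06, the mice that were also highest in the mean of the fat cell list, and the part of fat cell RNA in the heme synthesis values was not tested.

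Of 11 genes of nitrate and nitrite handling and S-nitrosothiols, 9 were detected, with a median difference of -0.03. In limma 0 passed the rule (9.00% of all transcripts tested). An unadjusted P value under 0.05 was reached by 0, against 14.4% of all, with a smallest of 0.0612. Slc17a5, which encodes sialin, a nitrate carrier of salivary gland and other cells, stood at 14.43 ± 0.30 (SD, n = 5) after nitrate and at 14.44 ± 0.21 (SD, n = 6) in controls, a difference of -0.01 (SE 0.14, limma P = 0.921, exact permutation P = 0.907). Over the 10 lists together, 97 genes were written down, 94 were on the array and 79 were detected. Of these, 12 passed the rule (15.2%, against 9.00% of all transcripts tested), 3 higher and 9 lower, and 0 passed at an adjusted P value under 0.05 (limma), the adjusted P values of the 12 running from 0.185 to 0.338. The median difference of the 79 genes was -0.05. The shares are not fully alike, since a list gene counts by its brightest detected probe and the 9.00% counts every probe tested. Aldehyde dehydrogenases gave 6 of the 12.

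**Figure D5:**
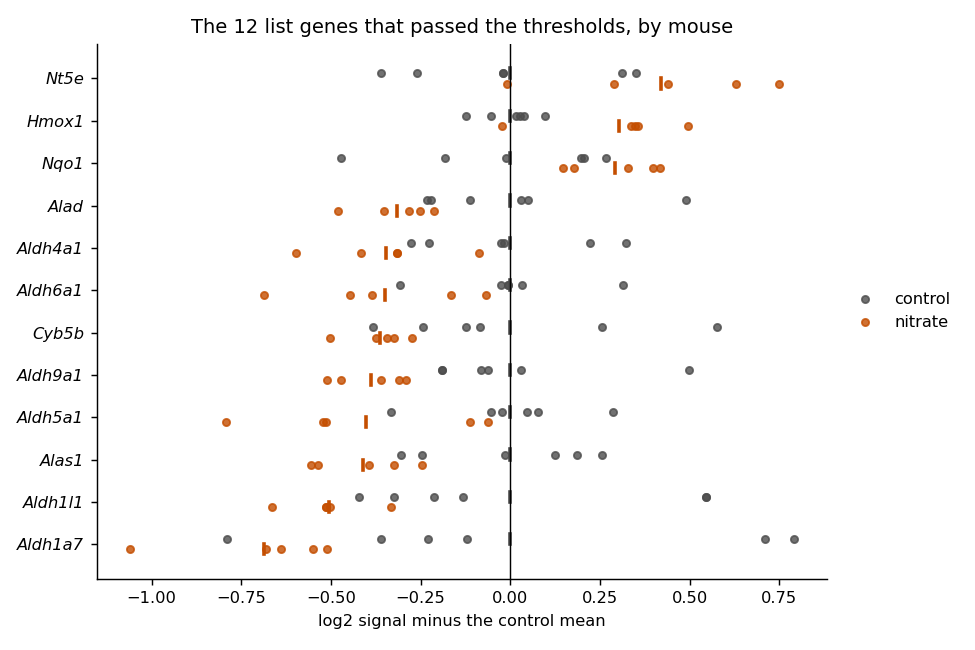
Log2 signal minus the control mean (x axis) of the 12 list genes that passed the rule (y axis), with 1 point per mouse and short bars for group means. Aldh9a1 is the only one of the 12 whose groups do not overlap.

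The other members were most like genes of varied kinds over the 11 arrays, given as description. For Xdh these were Gimap6 (r = 0.963), Gm4013 (r = 0.944) and Eepd1 (r = 0.941), and for Aox1 they were Rftn1 (r = 0.941), Tspan17 (r = 0.928) and Gimap5 (r = 0.915). For Ngb they were Paqr6 (r = 0.872), Ankrd29 (r = 0.870) and Cdca7 (r = 0.866), and for Aldh2 Smpd2 (r = 0.898), Creld1 (r = 0.890) and Glb1l (r = 0.879). For Cyb5r3 they were Pea15a (r = 0.948), Anxa8 (r = 0.943) and St3gal2 (r = 0.936), and for Por Spata2 (r = 0.921), Cmtm3 (r = 0.907) and Tmem120a (r = 0.900). These were the 3 highest among 12213 symbols for each member, and all arrays of a slide share their hybridization.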

How the data were processed

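Total RNA of the descending aorta was measured on one-color Agilent 60-base arrays. The authors deposited spot intensity values made by Feature Extraction 10.7.1.1, which subtracts background from each spot, and a table of log2 values. Each column of that log2 table followed its array's own signals (correlation of at least 0.9999) and was used as an alternative. Here log2 was taken of the processed signal, with values below 1 set to 1. Control and flagged spots were left out, spots of a probe averaged and the 11 arrays quantile normalized. Probes whose spots passed both detection flags (found, well above background) on 5 or more arrays of a group were tested with lmFit and eBayes (R 4.3.3, limma 3.58.1), after a check on simulated data. The threshold was that of the study's methods, P below 0.05 before adjustment with more than a 1.2-fold change. Single genes also had a two-sided exact permutation test, in which the mice can be divided in 462 ways and the smallest P value is 0.00216.

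A gene was represented by its detected probe of highest mean signal. Named were the 10 members, the list genes that passed the threshold, Hba-a2, Hbb-b2, Slc17a5, the 3 symbols most correlated with each member and genes that define marker lists. Actc1, Nppa, Myl2, Tfrc, Atp2a1, Ckm, Hemgn, Hbp1 and the genes listed as not detected were added by name with their values in view. The members and lists were chosen with earlier results of these data known. Probe positions are those of the files (mm9). As alternatives, scaling, background correction, an offset of 16, the deposited table, flagged spots, detection rules, the prior variance, slide and replicate number as blocks, the choice of probe and each array left out were tried. The number of arrays limits the precision.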

Additional observations from a re-analysis of the deposited data

Results flagged for a closer look

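Single mice stood apart in 5 of the 70 groups examined (35 probes, each in both groups), where the gap to the nearest mouse was a large part of the range of the group, and chance would mark about 1 in 20 groups. In control mice, control 1 was high in Mb, with a gap of 0.664 of the range, and in Aldh9a1, with 0.672. The same mouse was low in the brighter Cyb5r3 probe, with 0.71. Control 3 was low in Slc17a5, at 0.844 of the range, and high in Adipoq, at 0.628. The reason was not tested.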

How the results depend on the processing

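None of the 10 genes passed the rule under any alternative run, and the smallest limma P value reached was 0.0513, for Ngb without nitrate treated mouse 3. Of 218 values recomputed over all slides for single genes, 213 kept their direction and their side of the threshold and 5 changed sign. These were Cyb5r3 without nitrate treated mouse 2 (-0.0023), Mb without nitrate treated mouse 4 (-0.079), and Por without nitrate treated mouse 4 (-0.022), without control 2 (-0.018) and without the 3 arrays highest in heart muscle genes (-0.085), an alternative chosen after seeing the data in which Mb was not run. There the Hbb-b1 difference was -0.11, against -0.46. Of 30 values within a slide, which have no test, 5 had the opposite sign (Xdh on slide 2, Mb on slides 1 and 2, Aldh2 on slide 2 and Cyb5r3 on slide 3). With single arrays left out, each of the 10 differences moved by over 1.5 times. They ran from -0.0023 to 0.130 for Cyb5r3, -0.079 to 1.67 for Mb, -0.022 to 0.121 for Por, -0.20 to -0.09 for Xdh, -0.20 to -0.08 for Aox1, 0.05 to 0.20 for Cygb, 0.21 to 0.53 for Ngb, -0.63 to -0.30 for Hba-a1, -0.68 to -0.27 for Hbb-b1 and -0.11 to -0.03 for Aldh2. The number of differentially expressed transcripts was 2128, 1218 with normexp background correction, 3224 with no filter on dim probes and 3394 with no fold limit, and with single arrays left out it lay between 1596 (without control 1) and 2424 (without control 6). List genes passing lay between 10 and 16 with single arrays left out, against 12. The replicate numbers did not pair the mice (correlations of deviations -0.14 to 0.18), and with the replicate number as a block 2433 transcripts, 0 of the 10 genes and 13 list genes passed. Where all arrays had to show the probe, 7 of the 10 probes that represent the genes could be tested. With 5 and 6 mice, a change in a hemoglobin gene or Mb within the wide intervals given could not be told from none, and Ngb was close to background.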
